A study of Homo sapiens with 6 samples.

Results

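The nuclear genes for the subunits of the mitochondrial respiratory chain and ATP synthase were followed in EA.hy926 cells kept at low oxygen. They were taken by symbol from protein-coding genes: symbols that start with NDUFA, NDUFB, NDUFC, NDUFS or NDUFV, the SDHA to SDHD genes, CYC1 and the UQCR subunits, the subunits whose symbols start with COX5 to COX8, and genes that start with ATP5. Assembly factors, NDUFA4 and NDUFA4L2 were left out, as were the retrocopy UQCRHL and DMAC2L, a gene formerly called ATP5S. This gave 80 of the 22153 genes in the table, of which 14565 are protein-coding. Complex I had 37 of them, complex II 4, complex III 9, complex IV 12 and complex V 18.

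EA.hy926 is an established human line, a hybrid of umbilical vein endothelial cells and A549 lung carcinoma cells that keeps endothelial features. The hypoxia group was 3 libraries of cells held in 1% oxygen for 8 h once they were nearly confluent, and the normoxia group was 3 libraries of the same line at 20% oxygen. Both groups grew in high-glucose medium with serum, and both were profiled by sequencing of polyadenylated RNA. The series asks which genes change their expression after 8 h of hypoxia. Whether the replicates were separate cultures is not stated in the labels. The p-values therefore reflect the spread among these 6 libraries, and that spread may be technical.

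Electrons from NADH enter the chain at complex I and those from succinate at complex II. Complex III passes them from ubiquinol to cytochrome c, complex IV passes them to oxygen, and complex V uses the resulting proton gradient to make ATP. The mitochondrial genome encodes the core membrane subunits of every complex except complex II, whose subunits are all nuclear. Under low oxygen, hypoxia-inducible factors (HIF) are known to raise glycolytic genes and to change single exchange subunits of the chain.

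The values are read counts divided by a size factor per library, called scaled reads here. Each library held 17226736 to 18652704 reads assigned to genes. Normoxia replicate 3 stood apart, with reads in 16741 genes where the other libraries had reads in 18214 to 18858. Between genes, levels are compared on an FPKM scale, on which scaled reads are divided by the summed exon length and the mean library total. Of the 7 genes set as a check on hypoxia, 6 reached the level needed for testing, all 6 had higher values in every hypoxia library than in any normoxia library, and 4 (BNIP3, LDHA, PGK1, SLC2A1) passed the test. The mitophagy protein gene BNIP3 had 6951, 5879 and 7254 scaled reads in hypoxia, against 520.0, 573 and 694 in normoxia. All 8 endothelial markers reached the level for testing. Of the epithelial markers, KRT8 and KRT18 were abundant and EPCAM and KRT19 lay below that level.

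No subunit gene passed the test for a difference between hypoxia and normoxia. Of the 80 genes, 76 reached 1 FPKM in at least 3 of the 6 libraries and were tested among 10237 genes, with limma on log2(FPKM + 0.1). A gene passed at a Benjamini-Hochberg adjusted p under 0.05. In limma 0 of 76 subunit genes passed, every one with an adjusted p of 1.00, beside 0.0977% of all genes tested. The count was also 0 with edgeR, 0 with DESeq2 (0.489% of all genes) and 0 at an unadjusted limma p under 0.05 (2.69% of all genes). At this background, a count of 0 among 76 genes does not set them apart.

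The estimates were close to 0 for most subunit genes. Log2 fold changes, hypoxia minus normoxia, ran from -0.50 to 0.53 with a median of 0.04, where all genes tested had a median of 0.00 and ran from -3.83 to 4.91. Of the 76 genes, 58 had an estimate within 0.25 of 0 and 74 within 0.50. Of all 10237 genes tested, 6789 and 9331 did. The 95% interval lay wholly inside a 2-fold change in either direction for 57 of 76 subunit genes (75%) and for 58.4% of all genes tested. The subunit genes were better counted, with a median level of 28.3 FPKM beside 5.88 for all genes tested. Their median SE was 0.28, beside 0.31. In simulated reads the same test recovered 7.42% of genes changed 2-fold and 78.6% of those changed 4-fold. Changes of 2-fold or less were therefore mostly not detectable over all genes tested. The changed genes were drawn from all of these, so recovery at the level of the subunit genes was not measured.

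Positive estimates outnumbered negative ones, 50 of 76 or 65.8%, beside 50.6% of all genes tested. This split depended on scaling: when libraries were scaled by total reads, 36 of 76 were positive and the median was -0.03, with an all-gene median of -0.07. It also depended on single libraries, with 66 positive when hypoxia replicate 2 was left out, 57 when normoxia replicate 3 was, and 28 when hypoxia replicate 1 was. The groups failed to overlap in 2 of 76 genes, NDUFA13 and NDUFB4, both higher in hypoxia (4.77% of all genes tested), and in 0 of 76 with lower values in hypoxia (2.72% of all genes). In either direction this is 2 of 76, beside 7.48% of all genes tested.

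**Figure D1:**
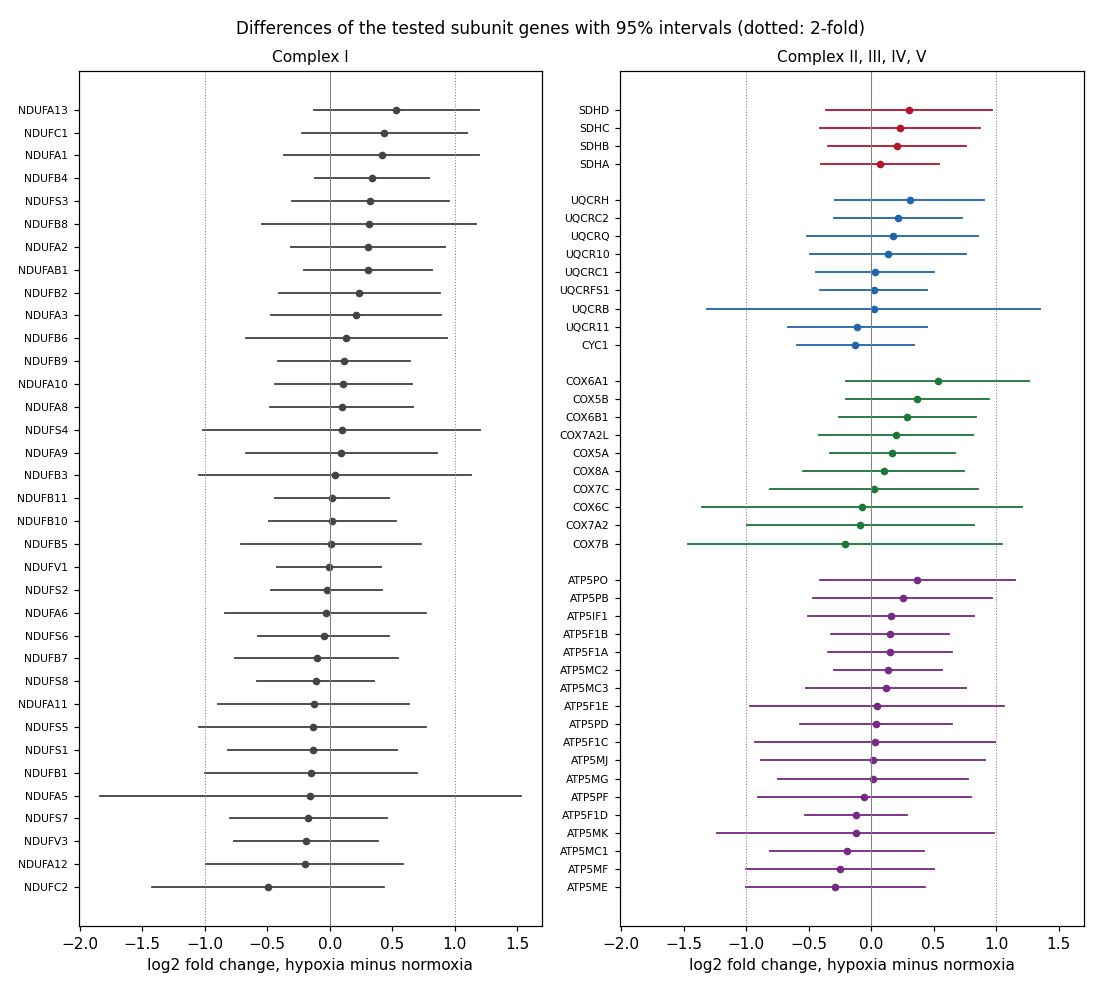
Log2 fold change, hypoxia minus normoxia, of the 76 tested subunit genes by complex (points) with 95% intervals from limma (lines). Dotted lines mark a 2-fold change; the points run from -0.50 for NDUFC2 to 0.53 for NDUFA13, and 57 of 76 intervals stay inside the dotted lines.

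The plot of fold changes shows intervals that all cross 0. The widest belonged to NDUFA5, from -1.84 to 1.53, and the narrowest to genes such as ATP5F1D, with an SE of 0.18.

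Promoters of subunit genes are known for sites of the nuclear respiratory factors NRF1 and GABPA (an ETS factor, also called NRF2) and of YY1. A few promoters are shown so that these motifs can be read in place, and many subunit genes had none of them. RefSeq promoters of build GRCh38.p14, from 250 bases before to 50 after the gene start, were found for 66 of 80 genes. The NRF1 motif, GCGCA and GCGC with 1 base of any kind between them, was present in 16 of 66, or 24.2%, beside 12.9% of the other protein-coding genes tested and 6.28% of all promoters in the table. CCGGAAG (ETS) was present in 28.8%, beside 20.7% and 10.7%, and AAGATGGCG (YY1) in 12.1%, beside 4.47% and 1.85%. At least 1 of the 3 motifs was present in 36 of 66 promoters, or 54.5%, beside 33.5% of other tested coding genes and 17.0% of all. The HIF core motifs did not follow this order, with ACGTG in 25.8%, 28.2% and 21.6% and GCGTG in 50%, 52.2% and 36.3%. Both strands were searched and matches could overlap. A match describes letters in the window and not a bound site.

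Below is 1 promoter per complex, chosen among those with such motifs, from 220 bases before to 30 after the start and read 5′ to 3′ on the gene's strand. Capitals mark matches to the NRF1, ETS or YY1 motif on either strand. The stretches are chr3:120596116-120596365 (plus strand) for NDUFB4, chr5:218100-218349 (plus) for SDHA, chr19:29213122-29213371 (minus) for UQCRFS1, chr2:97645842-97646091 (plus) for COX5B and chr21:25735025-25735274 (minus) for ATP5PF.
NDUFB4: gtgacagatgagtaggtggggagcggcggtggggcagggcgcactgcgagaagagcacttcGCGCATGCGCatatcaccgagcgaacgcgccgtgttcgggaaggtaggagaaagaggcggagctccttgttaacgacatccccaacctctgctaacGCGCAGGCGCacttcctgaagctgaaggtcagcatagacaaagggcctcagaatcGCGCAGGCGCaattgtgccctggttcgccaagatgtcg
SDHA: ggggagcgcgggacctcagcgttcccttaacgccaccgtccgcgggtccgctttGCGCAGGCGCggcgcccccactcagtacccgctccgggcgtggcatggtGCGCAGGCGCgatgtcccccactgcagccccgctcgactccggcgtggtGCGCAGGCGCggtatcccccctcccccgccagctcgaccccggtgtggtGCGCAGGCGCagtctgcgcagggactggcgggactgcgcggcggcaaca
UQCRFS1: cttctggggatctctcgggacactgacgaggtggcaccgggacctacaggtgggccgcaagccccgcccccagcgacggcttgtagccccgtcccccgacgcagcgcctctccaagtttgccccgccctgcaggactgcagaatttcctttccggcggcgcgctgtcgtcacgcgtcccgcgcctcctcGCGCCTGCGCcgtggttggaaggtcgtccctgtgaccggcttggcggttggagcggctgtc
COX5B: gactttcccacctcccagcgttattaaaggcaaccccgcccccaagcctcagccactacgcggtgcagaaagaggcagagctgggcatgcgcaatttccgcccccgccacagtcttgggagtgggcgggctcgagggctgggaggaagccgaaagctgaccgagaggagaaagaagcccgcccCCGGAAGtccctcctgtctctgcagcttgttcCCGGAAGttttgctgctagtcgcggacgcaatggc
ATP5PF: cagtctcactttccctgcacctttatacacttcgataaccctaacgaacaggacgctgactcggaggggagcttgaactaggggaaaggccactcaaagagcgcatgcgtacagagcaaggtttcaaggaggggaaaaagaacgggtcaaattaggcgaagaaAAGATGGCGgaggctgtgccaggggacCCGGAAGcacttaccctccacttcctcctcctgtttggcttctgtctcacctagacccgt
NDUFB4 carried 3 NRF1 matches in this stretch and SDHA 4, while UQCRFS1 had 1. COX5B had 2 ETS matches, and ATP5PF had 1 ETS match and 1 YY1 match. The estimates of these 5 genes, described next, ran from 0.37 for COX5B to -0.06 for ATP5PF.

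Complex I, the NADH dehydrogenase, had a median estimate of 0.02, with 20 of 35 tested genes positive and 0 past the test. Its nuclear genes took 0.294%, 0.191% and 0.299% of reads in hypoxia, against 0.233%, 0.272% and 0.287% in normoxia. The groups overlapped, and the lowest and the highest of the 6 shares were both hypoxia libraries.

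In the N module, where NADH is oxidised, 3 of 9 tested genes were positive, with a median of -0.03. The flavoprotein gene NDUFV1 had 4444, 3906 and 4063 scaled reads in hypoxia, against 4188, 3931 and 4317 in normoxia. It was among the steadiest genes of the complex, with an estimate of -0.0037 and a 95% interval of -0.42 to 0.41. NDUFS1, the largest iron-sulfur subunit, had 569, 379.5 and 496 in hypoxia, against 441, 656 and 500.3 in normoxia, and an estimate of -0.14 (SE 0.29). The groups overlapped throughout. NDUFAB1, the mitochondrial acyl carrier protein, had 1899, 1381 and 1879 in hypoxia, against 1531, 1464 and 1158 in normoxia (estimate 0.31, SE 0.22). Its hypoxia replicate 2 fell inside the normoxia range.

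In the Q module, which reduces ubiquinone, 2 of 6 genes were positive, with a median of -0.07. NDUFA9, which sits where the arms meet, was the lowest tested subunit gene at 1.56 FPKM and had 401, 235 and 264 scaled reads in hypoxia, against 321, 308 and 206 in normoxia. NDUFA5 varied most, with 593, 204 and 564 in hypoxia, against 232, 267 and 1514 in normoxia. Its highest value, normoxia replicate 3, was above every hypoxia library, and the estimate of -0.16 had an SE of 0.73.

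The membrane arm, which pumps protons, had 15 of 20 genes positive and a median of 0.10. NDUFB4 (ENSG00000065518, chr3:120596309-120602500, plus strand, GENCODE release 29 on GRCh38) had 3658, 2919 and 3743 scaled reads in hypoxia, against 2774, 2898 and 2462 in normoxia. The lowest hypoxia value lay just above the highest normoxia value. The estimate was 0.34 (SE 0.20), with an unadjusted limma p of 0.124. NDUFA13 (ENSG00000186010, chr19:19515736-19529054, plus strand), also known as GRIM-19, had 129, 93.3 and 84.6 in hypoxia, against 71.0, 60.6 and 73.4 in normoxia. Its estimate was 0.53 (SE 0.29) with an unadjusted limma p of 0.0996, and it was weakly counted, at 1.76 FPKM. Of its principal transcript, 44.1% lies in exons of another gene on the same strand.

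NDUFC1 had 671, 586 and 808 scaled reads in hypoxia, against 589.9, 626 and 344 in normoxia, an estimate of 0.44 (SE 0.28). NDUFC2, also of the membrane arm, had the lowest estimate of the 76, -0.50 (SE 0.40), with 331, 207 and 251 in hypoxia, against 237, 309 and 669 in normoxia. In both genes normoxia replicate 3 stood far from the other normoxia libraries, on opposite sides. Without that library the estimates moved towards each other, to 0.17 for NDUFC1 and -0.07 for NDUFC2.

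NDUFA1, an X-linked small subunit, had 2588, 1073 and 2334 scaled reads in hypoxia, against 1244, 1484 and 1477 in normoxia, and an estimate of 0.42 (SE 0.34). The hypoxia libraries lay on both sides of the normoxia libraries. NDUFB8, often used as a protein marker of assembled complex I, had 195, 105 and 117 in hypoxia, against 119, 148 and 69.6 in normoxia. NDUFB7, the most abundant gene of the complex at 357 FPKM, had 3977, 2396 and 3393 in hypoxia, against 2987, 2848 and 4730.3 in normoxia (estimate -0.11, SE 0.28).

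Complex II, the succinate dehydrogenase, was the complex whose estimates were all positive, 4 of 4, with a median of 0.22 and 0 past the test. SDHA, the flavoprotein that oxidises succinate, had 3694, 3229 and 3086 scaled reads in hypoxia, against 3509.9, 3277 and 2761 in normoxia (estimate 0.07, SE 0.20). The iron-sulfur subunit gene SDHB had 1574, 989 and 1469 in hypoxia, against 1032, 1136 and 1268 in normoxia (0.21, SE 0.24). Both pairs of groups overlapped. Of the membrane anchors, SDHC had 1125, 755 and 1179.7 in hypoxia, against 892, 955 and 718 in normoxia (0.23, SE 0.28). SDHD had 991, 506 and 736 in hypoxia, against 499.9, 615 and 638 in normoxia (0.30, SE 0.29). In SDHB, hypoxia replicate 2 was the lowest of the 6 libraries. In SDHC and SDHD it lay within the normoxia range.

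The median of complex II was positive under every alternative in which it was recomputed, from 0.07 without hypoxia replicate 1 to 0.42 without hypoxia replicate 2. Single genes were less steady. SDHA turned negative with total read scaling, without hypoxia replicate 1 and without normoxia replicate 3, which left 3 of 4 positive. The 3 tested assembly factors of complex II, SDHAF1, SDHAF2 and SDHAF4, had estimates of 0.30 to 0.40, with 0 past the test. The summed share of reads was 0.0355% ± 0.00631 in hypoxia and 0.0334% ± 0.00292 in normoxia (SD, n = 3 each), a difference smaller than either SD.

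Complex III, the cytochrome bc1 complex, had a median of 0.03 with 7 of 9 genes positive and 0 past the test. The core subunit UQCRC1 had 7279, 6263 and 7222 scaled reads in hypoxia, against 6167, 6054 and 8215 in normoxia (estimate 0.03, SE 0.20). UQCRC2, its partner in the core, had 2256, 1610.4 and 2348 in hypoxia, against 1638, 1785 and 1858 in normoxia (0.22, SE 0.22). The groups of both genes overlapped. The Rieske iron-sulfur protein gene UQCRFS1 had 3776, 3221 and 3164 in hypoxia, against 3508, 3129 and 3360.1 in normoxia (0.02, SE 0.19). Cytochrome c1, from CYC1, was the most abundant of the complex per summed exon length, at 192 FPKM, while UQCRQ led per principal transcript. CYC1 had the lowest estimate of the complex, -0.13 (SE 0.20), with 7446, 5585 and 6454 in hypoxia, against 6805, 6401 and 8021 in normoxia. These catalytic and core genes thus stayed within 0.25 of 0.

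UQCRH, the hinge protein gene, had the highest estimate of complex III, 0.31 (SE 0.26), with 3625, 2009.6 and 2927 scaled reads in hypoxia, against 1954, 2251 and 2549 in normoxia. UQCR11 was the least abundant of the complex, at 11.8 FPKM, with 543, 339 and 437 in hypoxia, against 442, 481 and 478 in normoxia. UQCRB gave opposite signs by different summaries: its estimate was 0.02 (SE 0.58) while the ratio of group means was 0.849. It had 3404, 1553 and 3187 in hypoxia, against 1339.8, 1896 and 6356 in normoxia, so that normoxia held both the lowest and the highest library.

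Complex IV, cytochrome c oxidase, had a median of 0.14 with 7 of 10 tested genes positive and 0 past the test. COX5A, COX5B and COX6B1 encode subunits of its matrix and intermembrane sides. COX5A had 2454, 2202 and 2382 scaled reads in hypoxia, against 2394, 2323 and 1628 in normoxia (estimate 0.17, SE 0.22). COX5B had 4933, 2779 and 3931 in hypoxia, against 2812, 3228 and 2749.8 in normoxia (0.37, SE 0.25). COX6B1, the most abundant of the complex at 195 FPKM, had 4567, 2763 and 3518 in hypoxia, against 3010.0, 3214 and 2521 in normoxia (0.29, SE 0.24). In COX5B and COX6B1, 2 hypoxia libraries lay above all normoxia libraries, and hypoxia replicate 2 lay among them.

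COX6A1 (ENSG00000111775, chr12:120438090-120440742, plus strand), a membrane subunit, had the highest estimate of complex IV, 0.53 (SE 0.32), with 1690.5, 1028 and 1347 scaled reads in hypoxia, against 1130.1, 1145 and 597 in normoxia. COX6A1P2, a copy of this gene, was listed at 13.0% of its scaled reads, and the labels do not say how reads matching both were assigned. COX7B was at the other end, -0.21 (SE 0.54), with 1773, 809.9 and 1873 in hypoxia, against 996, 1122 and 3733 in normoxia. It was also the least abundant tested gene of the complex, at 31.8 FPKM. COX7A2L, which takes part in joining complexes into supercomplexes, had 4555, 3406 and 3843 in hypoxia, against 2949.6, 2746 and 4832 in normoxia (0.20, SE 0.27), and COX8A had an estimate of 0.10 (SE 0.28).

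Several subunits of complex IV exist as paired isoforms with different tissue use. COX7A2, the widely expressed isoform, had 3410.0, 1770.1 and 2694 scaled reads in hypoxia, against 1912, 2146 and 4737 in normoxia. COX7A1, the heart and muscle isoform, had 1.04, 0 and 0 in hypoxia, against 1.06, 0 and 0 in normoxia. COX6B2, the testis isoform of COX6B1, had 1.04, 0 and 2.85 in hypoxia, against 0, 0.947 and 0 in normoxia. Both tissue-restricted genes were thus at the edge of detection in both groups and were not tested. The symbol rule found no COX6A2 or COX8C among the protein-coding genes listed, so neither was analysed here.

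Complex V, ATP synthase, took the largest share of reads among the nuclear genes of the 5 complexes. It took 0.382%, 0.245% and 0.383% in hypoxia, against 0.291%, 0.332% and 0.366% in normoxia. The median estimate was 0.03, with 12 of 18 positive and 0 past the test. The catalytic subunit gene ATP5F1B (ENSG00000110955, chr12:56638175-56646068, minus strand) was the most abundant subunit gene of all, at 541 FPKM. It had 26865, 19031 and 25337 scaled reads in hypoxia, against 21856, 21446 and 20098 in normoxia (estimate 0.15, SE 0.20). The other F1 head subunit ATP5F1A had the same estimate to 2 decimals, with 5882, 4273 and 5536 in hypoxia, against 4929, 4969 and 4137 in normoxia. In both genes hypoxia replicates 1 and 3 lay above all normoxia libraries. The rotor stalk gene ATP5F1C had 3607, 1674 and 3371 in hypoxia, against 1896, 2179 and 4619 in normoxia (0.03, SE 0.42).

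ATP5MC1, ATP5MC2 and ATP5MC3 encode the same mature c subunit of the rotor ring behind different import peptides. ATP5MC2 had the most reads, 7427, 7931 and 6389.8 scaled reads in hypoxia, against 7035, 6365 and 6324 in normoxia (estimate 0.14, SE 0.19). ATP5MC3 had 3567, 1912 and 3289 in hypoxia, against 2617, 2877 and 2328 in normoxia (0.12, SE 0.28). ATP5MC1 had 1429, 777 and 1309 in hypoxia, against 1216, 1402 and 1281 in normoxia (-0.20, SE 0.27). Hypoxia replicate 2 was the lowest library for ATP5MC1 and ATP5MC3 and the highest for ATP5MC2, the single subunit gene of the 76 in which it was highest.

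In the peripheral stalk 3 of 4 genes were positive, led by ATP5PO with 787, 346 and 606 scaled reads in hypoxia, against 391, 369 and 529 in normoxia (estimate 0.37, SE 0.34). The small membrane subunits had 2 of 5 positive and a median of -0.12. The lowest was ATP5ME, -0.29 (SE 0.31), with 248, 137 and 168 in hypoxia, against 179, 194 and 299.99 in normoxia. ATP5MG was the least abundant of the complex at 8.32 FPKM, with an estimate of 0.01. The inhibitor gene ATP5IF1, whose product binds the F1 head when the proton gradient fails, had 682, 472 and 751 in hypoxia, against 625, 683 and 405 in normoxia (0.16, SE 0.29).

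**Figure D2:**
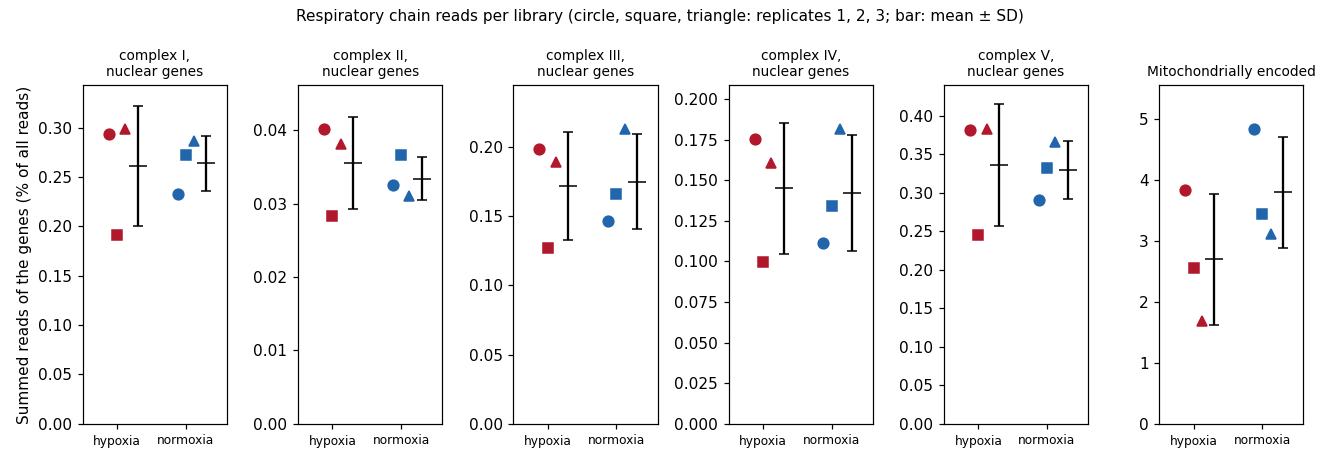
Summed reads of the nuclear subunit genes of each complex and of the 13 mitochondrially encoded subunits, as a percentage of all reads in each library (points), with mean ± SD (n = 3 per group); each vertical axis starts at 0 and has its own scale. Hypoxia replicate 2 (square) is the lowest library in every nuclear panel, for example at 0.245% in complex V.

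All nuclear subunit genes together took 1.09%, 0.691% and 1.07% of reads in hypoxia, against 0.813%, 0.941% and 1.08% in normoxia. The means were 0.950% ± 0.225 in hypoxia and 0.944% ± 0.132 in normoxia (SD, n = 3 each). The plot of shares by complex shows that the spread within hypoxia was larger than the difference between groups in each complex. In bulk RNA, fewer cells and less RNA per cell cannot be told apart.

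The mitochondrially encoded subunits of the same complexes took 3.84%, 2.56% and 1.69% of reads in hypoxia, against 4.83%, 3.44% and 3.11% in normoxia, and the groups overlapped. Their median estimate was -0.59 with 12 of 13 negative, beside 5058 of 10237 genes tested, and 0 of 13 passed the test. The 13 genes share the same 6 libraries and are not independent replicates. Nuclear reads were 28.4%, 27.0% and 63.3% of the mitochondrially encoded ones in hypoxia, against 16.8%, 27.4% and 34.6% in normoxia. Only hypoxia replicate 3 stood above all normoxia libraries in this ratio, and it was the library with the lowest mitochondrial share.

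The main variation of the subunit genes ran between libraries of the same group. Hypoxia replicate 2 was the lowest of the 6 libraries in 42 of 76 genes (55.3%, beside 17.6% of all genes tested). Hypoxia replicate 1 was the highest in 33 (43.4%, beside 14.5%). Normoxia replicate 3 was the highest in 28 (36.8%, beside 27.4%) and the lowest in 23 (30.3%, beside 28.2%). The median log2 deviation of the subunit genes from the mean of the 6 libraries was 0.33, -0.35 and 0.17 in hypoxia, against -0.14, -0.05 and 0.02 in normoxia. The range within hypoxia thus exceeded the median difference between the groups. The median coefficient of variation over the subunit genes was 26.9% in hypoxia and 17.96% in normoxia, where all genes tested had 23.6% in hypoxia and 25.1% in normoxia.

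**Figure D3:**
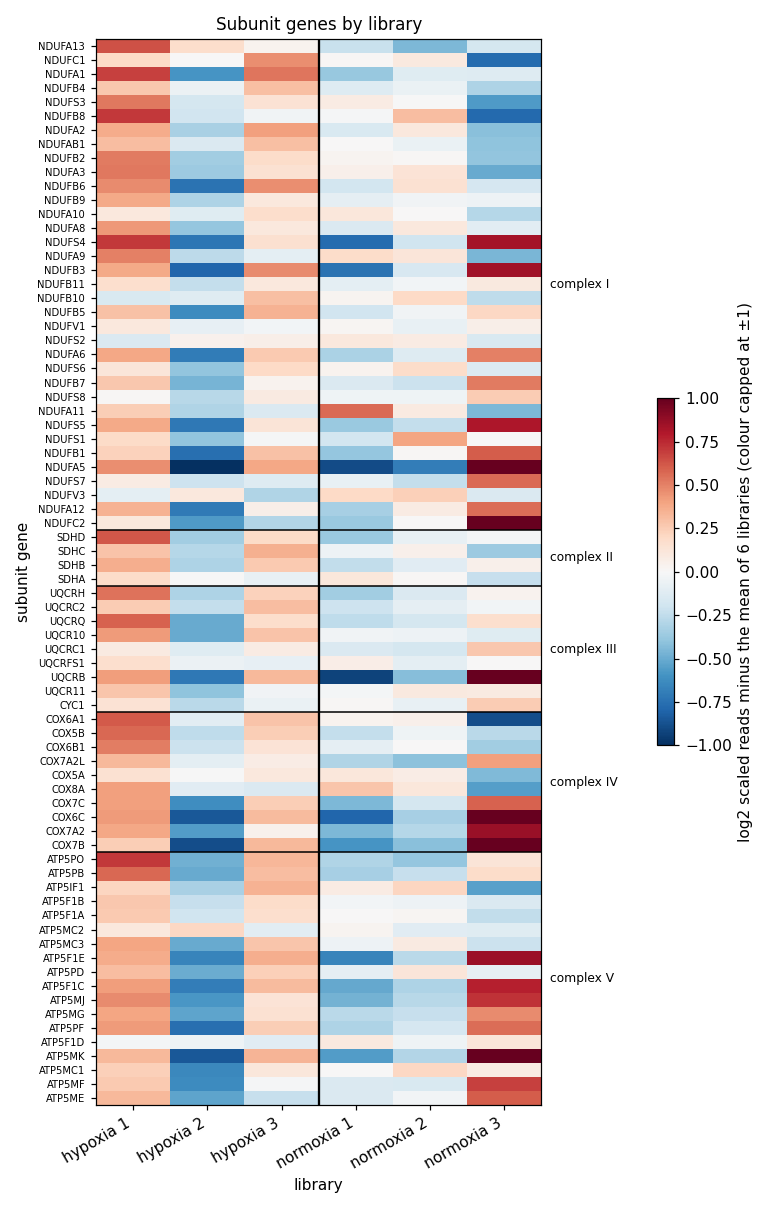
Log2 scaled reads of each tested subunit gene in each library, minus the gene's mean over the 6 libraries (colour, capped at ±1), with genes grouped by complex and ordered by estimate. Hypoxia replicate 2 is below the mean in most rows and is the lowest library in 42 of 76 genes, and normoxia replicate 3 is split between high and low genes.

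The heat map shows that low values of hypoxia replicate 2 crossed the complexes, but not evenly. In complexes II and IV normoxia replicate 3 was the lowest library more often, in 2 of 4 and 5 of 10 genes. Hypoxia replicate 2 was the lowest library in 18 of 35 genes of complex I, 1 of 4 of complex II, 5 of 9 of complex III, 4 of 10 of complex IV and 14 of 18 of complex V. The 8 endothelial markers summed to 61165, 125458 and 84106 scaled reads in hypoxia, against 100103, 91191 and 58244.5 in normoxia, so that the sum was highest in hypoxia replicate 2 and lowest in normoxia replicate 3. Single markers differed in this: hypoxia replicate 2 was highest in 6 of 8, with KDR and ERG highest in normoxia replicate 2. Hypoxia replicate 1 was lowest in 4 of 8 and normoxia replicate 3 in 3 of 8. VWF had 371, 4819 and 1568 scaled reads in hypoxia, against 3522, 2669 and 462 in normoxia, and CDH5 had 10212, 36221 and 17876 in hypoxia, against 21451, 19218 and 8576 in normoxia. The 4 epithelial markers summed to 42665, 26066 and 33565 in hypoxia, against 31717, 30386 and 42693 in normoxia, with hypoxia replicate 2 lowest. KRT8 carried this order, with 30344, 15154 and 20157 in hypoxia, against 21143, 19057 and 27279.5 in normoxia, and hypoxia replicate 2 was lowest in 1 of the 4. None of the tested markers of both lists passed the test between the groups, and their part in the subunit pattern was not tested.

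Base composition moved with the libraries too. GC content was taken from the longest annotated transcript of each gene. Across the 76 subunit genes, the deviation of a library correlated with GC content, with Pearson's r of -0.29, 0.43 and -0.46 in hypoxia, against 0.52, 0.22 and -0.30 in normoxia. Across 10233 genes tested the values were -0.32, 0.46 and -0.29 in hypoxia, against 0.61, 0.23 and -0.52 in normoxia. The genes are not independent replicates, since all share the same 6 libraries. The 28 subunit genes highest in normoxia replicate 3 had a median GC content of 44.9% (range 35.0% to 65.0%). The 23 lowest there had a median of 49.8% (range 40.8% to 62.7%), so the ranges overlapped. After a correction for GC content and exon length, the median deviations were 0.21, -0.26 and 0.11 in hypoxia, against -0.02, -0.03 and -0.13 in normoxia, and hypoxia replicate 2 was the lowest library in 33 of 76. That is 43.4% of the subunit genes, beside 17.1% of all genes tested. Normoxia replicate 3 was the lowest in 32 of 76 (42.1%), beside 42.1% of all genes, whose median deviation there was -0.18. The deviations of the 3 hypoxia libraries were smaller after the correction and kept their order. In normoxia replicate 3 the median of the subunit genes moved from 0.02 to -0.13. The median of all genes tested moved there too, from -0.03 to -0.18.

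**Figure D4:**
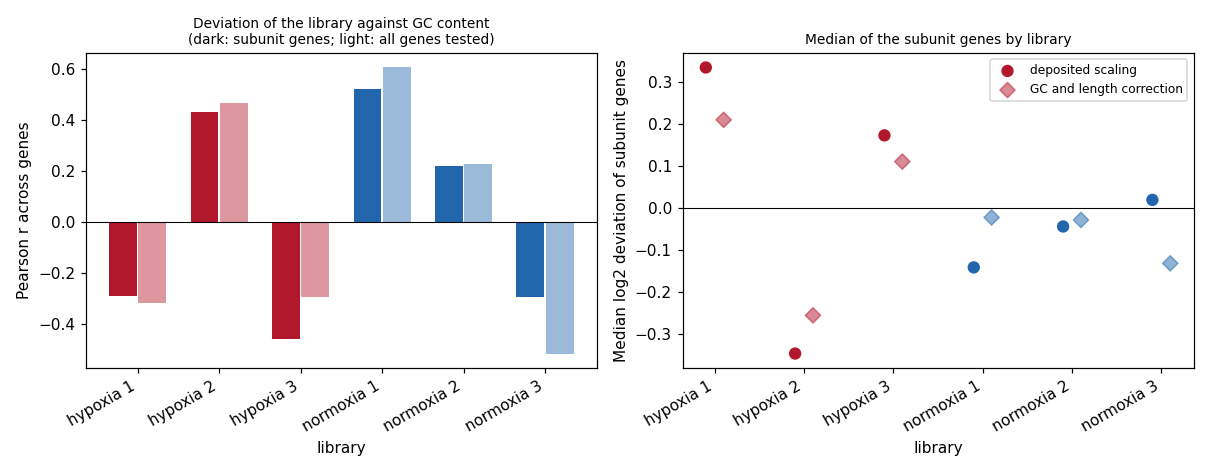
Left: Pearson's r between a library's log2 deviation and GC content of the longest transcript, across 76 subunit genes (dark bars) and all genes tested (light bars). Right: median log2 deviation of the subunit genes in each library with the deposited scaling (circles) and after correction for GC content and exon length (diamonds); hypoxia replicate 2 is lowest in both, at -0.35 and -0.26.

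The level at which a subunit gene was counted varied with the exons it shares with other genes. By principal transcript, 5 genes had more than 50% of their bases in exons of another gene on the same strand, namely NDUFV2 (82.9%), NDUFA7 (75.9%), NDUFB8 (71.7%), ATP5PO (70.3%) and NDUFA11 (67.0%). Their median level was 10.5 FPKM per principal transcript, where 15 genes with a smaller shared part had 25.8 and 60 genes with none had 68.3. How reads in shared exons were assigned is not stated in the labels, and its part in these levels was not tested.

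NDUFV2, an iron-sulfur subunit gene of the N module (chr18:9102630-9134345, plus strand), had 2.07, 1.04 and 0.951 scaled reads in hypoxia, against 1.06, 4.73 and 5.64 in normoxia. NDUFV2P1, a copy of it, averaged 42.6. NDUFA7, also of the N module, had 4.15, 8.30 and 1.90 in hypoxia, against 3.18, 1.89 and 16.0 in normoxia. Both genes were thus nearly unread in the table while NDUFV1 of the same module averaged 4138 scaled reads in hypoxia and 4145 in normoxia. They were below the level for testing. With no filter on low values their estimates were -0.44 for NDUFV2 and -0.18 for NDUFA7, both with an adjusted p of 1.00 in limma.

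**Figure D5:**
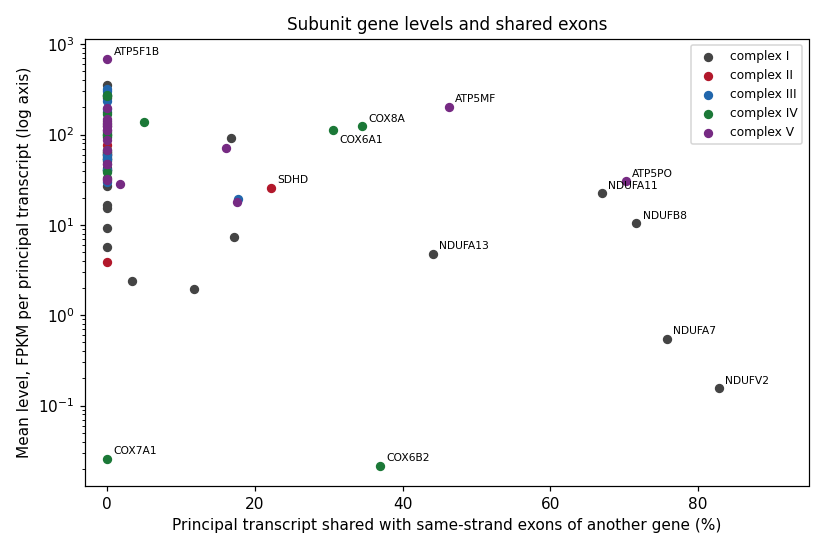
Mean level of each of the 80 subunit genes (FPKM per principal transcript, log axis) against the percentage of that transcript shared with same-strand exons of another gene. The 5 genes above 50% run from 0.155 to 30.3 FPKM, and ATP5F1B, with no shared bases, is at 683 FPKM.

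The plot of levels against shared exons leaves out overlaps on the opposite strand. RNF113A on the opposite strand overlaps 44.5% of the exons of NDUFA1, RBM10 44.9% of those of NDUFB11 and MYL5 61.6% of those of ATP5ME. Since no source used here states whether strand was used in counting, reads of such a pair cannot be told apart. Of the subunit genes, 36 share no exon base with any annotated gene. The 35 of these that were tested had a median of 0.03 with 21 positive and 0 past the test.

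Of the genes that assemble, feed or control the chain, 0 passed the test. Assembly factor genes had 52 entries in the table, with SCO2 in 2 of them. Of these entries 46 were tested, 25 were positive, the median was 0.03 and 0 passed. In 2 of the 46 every hypoxia library was below every normoxia library (2.72% of all genes tested), and in 0 above. The complex IV factor COA7 had 309, 246 and 294 in hypoxia, against 346, 369 and 408 in normoxia (estimate -0.40, SE 0.23). The complex V factor ATPAF2 had 316, 283 and 298 in hypoxia, against 395, 379.7 and 390.3 in normoxia (-0.37, SE 0.23). Neither passed the test. Of 12 genes for cytochrome c and coenzyme Q synthesis, 7 were positive with a median of 0.08. In 1 of these, the coenzyme Q synthesis gene COQ7, the groups did not overlap, with 244, 251 and 289 scaled reads in hypoxia, against 222, 231 and 196 in normoxia (0.26, SE 0.24), beside 4.77% of all genes higher in hypoxia. Of 10 tested genes that control transcription of mitochondrial proteins, 5 were positive with a median of -0.03. In both lists 0 passed limma.

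The subunits known to be exchanged with oxygen supply gave no called change where tested. COX4I1 had 12867, 10172 and 13782 scaled reads in hypoxia, against 9528, 9673 and 10638 in normoxia (estimate 0.29, SE 0.20). NDUFA4 had 4016, 1821 and 3542 in hypoxia, against 2424, 2512 and 4760.4 in normoxia (-0.05, SE 0.38). NDUFA4L2, a HIF target in several cell types, had 58.1, 41.5 and 19.0 in hypoxia, against 41.3, 33.1 and 56.4 in normoxia, and lay below the level for testing. COX4I2 was not found among the protein-coding genes listed and so was not analysed here.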

How the data were processed

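Polyadenylated RNA was sequenced from 3 hypoxia and 3 normoxia libraries, made with a NEBNext Ultra kit per the labels' protocols. The submitters' processing notes list CASAVA, HISAT2 2.0.5 and featureCounts 1.5.0-p3, and the mouse build mm9, which cannot apply to a table of human gene identifiers; the labels name no other build, annotation or strand setting. The deposited signal is whole reads divided by a size factor per library (0.944 to 1.06), since 100% of values were whole multiples of a library's step within 0.05 of a step, and reads were recovered from it. Gene lengths, positions and exons came from GENCODE release 29 (GRCh38), matched by identifier; 21988 of 22153 identifiers had a symbol.

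Scaled reads were divided by summed exon length and mean library total (17862226 reads), which gives FPKM with the deposited size factors kept. Genes with FPKM of 1 or more in 3 libraries (10237) were fitted as log2(FPKM + 0.1) with limma 3.58.1 (R 4.3.3; trend and robust variance), group as the only term, two-sided, Benjamini-Hochberg adjusted, threshold 0.05. Fold changes on this scale understate those of low genes. edgeR 4.0.16 and DESeq2 1.42.0 were run on the recovered reads. The fit was tested on simulated reads, 5 sets of 10237 genes with 200 changed in each, with 0 changed genes called in the wrong direction.

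Subunit genes named were a set list of 30, the highest and lowest by estimate and level in each complex, those below the filter and those whose groups did not overlap; NDUFA5, NDUFC1, UQCRB and the shared-exon genes were chosen after their values were seen. The subunit genes, the other lists and the tests were chosen with earlier results of these data known. Alternatives were other pseudocounts, filters, scalings and tools, a correction for GC content and length, the replicate number as a block, and each library left out.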

Additional observations from a re-analysis of the deposited data

How the results depend on the processing

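In each of the 17 alternatives 0 of the subunit genes tested passed the test, with a lowest adjusted p of 0.829 (limma, without normoxia replicate 3). The number of genes past the test over all genes was 10, and 4 with no filter on low values, 29 with GC and length correction, 50 with DESeq2, and 1 to 20 when a library was left out (20 without normoxia replicate 3). With the replicate number as a block it was 19, and 30 with the block and the GC and length correction. The replicate block changed no call of a subunit gene. Across genes, deviations from the group mean correlated at -0.40, 0.24 and 0.22 for same-numbered libraries. Hypoxia replicate 2 and normoxia replicate 1 reached 0.61. These values were not corrected for GC content, and whether same-numbered libraries form pairs was not tested. Leaving out a library moved every median estimate: over all subunit genes between -0.07 (without hypoxia replicate 1) and 0.30 (without hypoxia replicate 2), in complex I between -0.10 and 0.30, complex II 0.07 and 0.42, complex III -0.060 and 0.38, complex IV 0.0076 and 0.32, and complex V -0.13 and 0.30; the cause was not tested. With total read scaling the medians of complexes I, III and V were -0.05, -0.04 and -0.04, and that of complex V was -0.01 with DESeq2. Of the 76 genes, 29 had the same sign in every alternative that tested them (17 for 68 genes and 16 for the 8 lost to the stricter filter), 23 positive and 6 negative, and 58 in those that kept every library. In the simulated reads, with 3 libraries a group, changes of 2-fold or less were mostly out of reach over all genes. In the data, 4 subunit genes were too weakly read to test. Levels per principal transcript and the subset that shares no exon base were chosen after seeing the data.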
